A study of Mus musculus with 2 samples.

Results

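Gamma-delta (γδ) T cells of IL-17 type were followed in immune cells sorted with a CD45 antibody and a dye for dead cells from subcutaneous tumours of MOC2, a mouse oral carcinoma line. The tumours grew in female C57BL/6 mice aged 6 to 7 weeks that received daily intraperitoneal Momordicine-I, a triterpenoid of bitter melon, at 30 mg/kg, or the vehicle alone, DMSO in a Captisol solution, which the Momordicine-I group received too. Each arm had 10 mice. Tumours of 3 mice per arm were pooled before sorting, so each group is 1 library with no replicate, and the mice within a pool are not told apart. A cell was taken as a γδ T cell when it held 1 or more unique molecular identifiers (UMIs, counts of captured RNA molecules) of Cd3d, Cd3e and Cd3g and 2 or more of the constant genes Trdc and Tcrg-C1. It had to hold no UMI of Foxp3, Ncr1, Klrb1c or Cd79a, and at most 1% of its UMIs could come from 5 neutrophil genes. The rule found 219 cells among the 7734 that passed the quality filter, 168 of 4370 in the Momordicine-I library and 51 of 3364 in the vehicle library.

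γδ T cells carry a T cell receptor of a γ and a δ chain. A branch that is committed to IL-17 in the fetal and newborn thymus depends on transcription factors such as SOX13 and MAF, is driven by IL-23 and IL-1 without prior priming, and makes IL-17A, a cytokine that draws in neutrophils. Such cells sit in skin, mucosa and many mouse tumours, where a large part of them carries a receptor joined from the segments Tcrg-V6 and Trdv4.

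The libraries held 41804810 UMIs with Momordicine-I and 33998491 with vehicle. The γδ T cells held 1432998 UMIs in the Momordicine-I library and 364915 in the vehicle library, with medians of 6215 and 6103 UMIs and of 2120.5 and 2067 genes per cell. The libraries shared 10 barcodes, 0 of them among the γδ T cells. All intervals below are 95% intervals that cover counting error only, not the variation between cells, mice or libraries, and no test was possible with 1 library per group.

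The rule fixed the level of Trdc and Tcrg-C1, which had a median of 12 UMIs per cell in the Momordicine-I and 9 in the vehicle cells. Just inside it, 11 Momordicine-I and 4 vehicle cells held exactly 2 UMIs of these genes. Just outside, 9 Momordicine-I and 10 vehicle cells held 1 UMI and met the other conditions. A further 6 Momordicine-I and 12 vehicle cells were left out only for a UMI of Ncr1 or Klrb1c, and 4 and 4 only for Foxp3. The transcript of Tcrg-C1 is 96.1% identical to that of Tcrg-C2 over 909 aligned bases, so reads can be split between these copies.

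The label was set beside its own marker genes that the rule did not use, and most of the cells held them. These markers were chosen with earlier results of these data known, so their levels describe the cells. Il17a was at 817 CPM (the count of a gene scaled to a fixed total of summed UMIs) in Momordicine-I and 770 CPM in vehicle γδ T cells. In other T cells, chosen by the same rule but with 0 UMIs of Trdc and Tcrg-C1, it was at 2.37 CPM in the Momordicine-I and 2.55 CPM in the vehicle library. Blk, a Src-family kinase needed for full numbers of these cells in mice, was at 209 and 186 CPM in the γδ T cells, against 3.55 and 2.87 CPM in other T cells. It had a UMI in 116 of 168 Momordicine-I and 24 of 51 vehicle γδ T cells. B-gated cells, chosen by Cd79a without Cd3, held Blk too, in 37 of 88 and 109 of 225 cells. Tmem176a and Tmem176b, ion channel proteins of intracellular membranes, were at 562 and 518 CPM in Momordicine-I and 482 and 452 CPM in vehicle γδ T cells. Their highest level in other T cells was 67.5 CPM.

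The cytokine gene Il17a (chromosome 1, 20730905 to 20734496, mm10) and the receptor gene Il23r (chromosome 6, 67422932 to 67491855) were among the genes that set these cells furthest apart from other T cells. With Il17f, the neighbour of Il17a, they are shown with the 250 bases before the annotated start, from RefSeq on GRCm38.p6. Capitals mark AGGTCA on either strand (TGACCT when read on the other), a half-site known for nuclear receptors.
Il17a, chr1:20730655-20730904, plus strand: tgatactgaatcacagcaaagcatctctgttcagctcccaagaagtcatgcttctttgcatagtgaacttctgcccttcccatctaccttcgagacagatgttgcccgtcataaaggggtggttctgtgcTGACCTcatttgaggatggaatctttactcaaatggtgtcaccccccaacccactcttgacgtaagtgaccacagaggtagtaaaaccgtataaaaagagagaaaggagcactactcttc
Il17f, chr1:20784271-20784520, minus strand: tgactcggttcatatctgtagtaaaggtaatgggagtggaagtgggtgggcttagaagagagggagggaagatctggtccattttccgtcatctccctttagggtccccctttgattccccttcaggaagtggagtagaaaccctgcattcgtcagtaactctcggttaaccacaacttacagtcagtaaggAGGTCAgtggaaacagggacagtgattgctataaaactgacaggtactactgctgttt
Il23r, chr6:67491856-67492105, minus strand: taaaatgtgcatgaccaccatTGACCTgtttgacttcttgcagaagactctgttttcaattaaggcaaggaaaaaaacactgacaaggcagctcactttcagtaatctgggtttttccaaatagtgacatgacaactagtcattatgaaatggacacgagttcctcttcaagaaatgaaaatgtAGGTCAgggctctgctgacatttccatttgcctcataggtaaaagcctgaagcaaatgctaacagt

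The 6 letters stood once in the Il17a window, 120 bases before the start, once in the Il17f window at 58 bases, and in the Il23r window at 229 and 66 bases. They are short and common: 14.0% of 32851 promoter windows of the same length held them, and 7 of the 18 IL-17 type genes found in the table did. A match of letters says nothing of binding here.

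The Momordicine-I library held more γδ T cells for its size. They made up 3.84% of all cells (3.29 to 4.46%) with Momordicine-I and 1.52% (1.13 to 1.99%) with vehicle, a ratio of 2.54 (1.84 to 3.54). Among cells with at most 1% neutrophil-gene UMIs the shares were 10.5% and 3.73% (ratio 2.82, 2.05 to 3.93). Among Cd3-positive cells that met the other exclusions, 168 of 320 (52.5%) were γδ T cells with Momordicine-I and 51 of 298 (17.1%) with vehicle (ratio 3.07, 2.23 to 4.28). Over 11 other ways of drawing the gate the first ratio lay between 2.21 and 3.31.

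**Figure D1:**
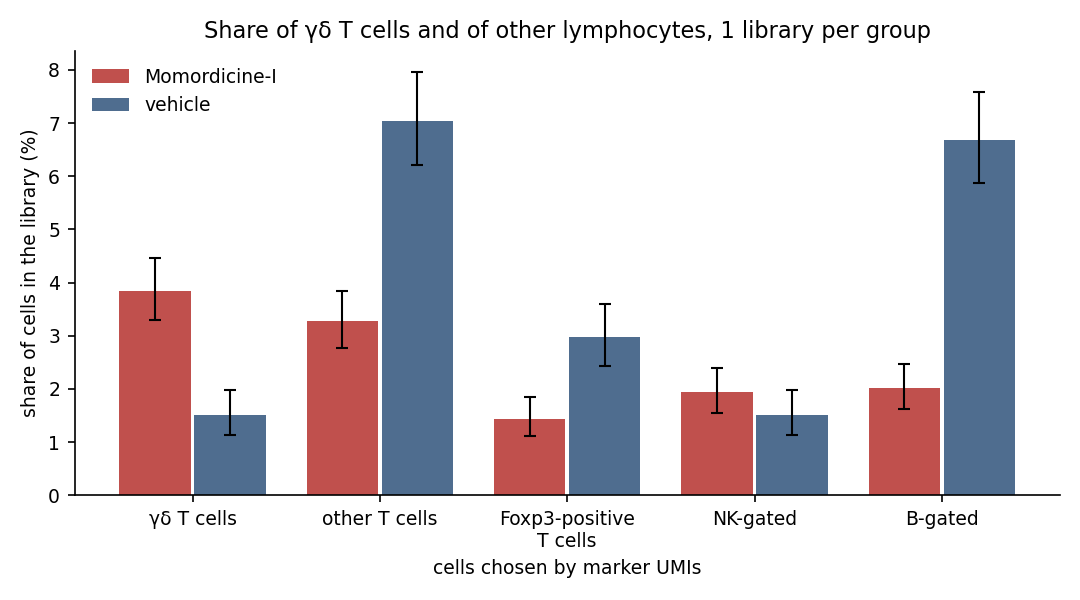
Share of all cells in each library (%, y axis) for γδ T cells and 4 other kinds of lymphocyte (x axis). Bars are single libraries, Momordicine-I left and vehicle right, and whiskers are exact 95% intervals that cover counting error only. The γδ share is 3.84% with Momordicine-I and 1.52% with vehicle, while other T cells are at 3.27% and 7.05%.

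Other lymphocytes differed in other directions. Other T cells were at 3.27% with Momordicine-I and 7.05% with vehicle (ratio 0.464, 0.375 to 0.574), Foxp3-positive T cells at 1.44% and 2.97% (ratio 0.485, 0.348 to 0.671) and B-gated cells at 2.01% and 6.69% (ratio 0.301, 0.233 to 0.387). NK-gated cells were at 1.95% and 1.52% (ratio 1.28, 0.896 to 1.85). Shares of one library sum to a fixed total, so a higher share of one kind and lower shares of others cannot be told apart from a change in the others alone.

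The receptor segments were read next, since they name the γδ lineage. Other T cells were chosen for 0 UMIs of Trdc and Tcrg-C1, the constant genes of such chains. Few reads of γ and δ segments in other T cells therefore follow in part from the rule. Trdv4, the δ segment that pairs with Tcrg-V6, had a UMI in 116 of 168 Momordicine-I cells (69.0%) and 33 of 51 vehicle cells (64.7%), against 1.40% and 0.422% of other T cells and 0% and 0.444% of B-gated cells. NK-gated cells, which hold no Cd3 UMI, also held Trdv4, in 16 of 85 (18.8%) and 15 of 51 (29.4%) cells, and in 3 of 85 and 1 of 51 after thinning. Its level was 256 CPM in Momordicine-I and 301 CPM in vehicle γδ T cells. Tcrg-V6 was read in 42 of 168 and 8 of 51 cells, and 32 of those 42 and 8 of those 8 held Trdv4 as well. After each cell was thinned to 2000 UMIs, Trdv4 was read in 40.5% of 163 Momordicine-I and 42.0% of 50 vehicle cells, so the Trdv4 shares of the libraries lay close to each other at either depth.

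The γ segment read most often was Trgv2, in 57 of 168 Momordicine-I (33.9%) and 13 of 51 vehicle (25.5%) cells, against 6 of 143 and 6 of 237 other T cells. After thinning it was read in 26 of 163 and 4 of 50 cells. Tcrg-V4, the segment of another IL-17 lineage of mouse lymph nodes and skin, had a UMI in 5 Momordicine-I and 6 vehicle cells, 2.98% (0.973 to 6.81%) and 11.8% (4.44 to 23.9%). Tcrg-V1, typical of γδ T cells that make interferon-γ, had one in 10 and 4 cells, and Tcrg-V7, of gut intraepithelial cells, in 0 and 0. A count of 0 UMIs says only that the segment was not detectable at this depth. RNA of the αβ receptor was present too: Trac had a UMI in 59 Momordicine-I (35.1%) and 12 vehicle (23.5%) γδ T cells, against 63.6% and 80.2% of other T cells and 1.14% and 2.67% of B-gated cells. Trbc1 had a UMI in 106 and 31 γδ T cells and Trbc2 in 136 and 39. The coreceptor genes Cd4 and Cd8b1 marked 8 and 5 γδ T cells. Summed with Cd8a, these αβ markers made up 0.0752% and 0.107% of γδ UMIs. In other T cells they made up 0.0879% and 0.123%. The part of αβ T cells inside the gate was not tested otherwise. The γδ share ratio was 2.21 without cells that held Trac, Cd4 or Cd8b1.

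A larger share of the gate held the IL-17 type in the Momordicine-I library. A cell was counted as holding the IL-17 type set with UMIs of 3 or more of 13 genes, among them Il17a, Il17f, Il23r, Blk, Cd163l1, 5830411N06Rik, Ccr6, Il1r1, Sox13, Maf, Tmem176a and Tmem176b. This held for 159 of 168 Momordicine-I cells (94.6%, 90.1 to 97.5%) and 37 of 51 vehicle cells (72.5%, 58.3 to 84.1%). Thinned to 2000 UMIs it held for 79.1% and 56.0%. Among other T cells it held for 9.79% of Momordicine-I and 4.22% of vehicle cells, and for 1.57% and 0.441% after thinning. Among B-gated cells it held for 1.14% and 5.78%, and for 0 of 86 and 0 of 221 after thinning. It held for 20.6% and 13% of Foxp3-positive T cells (4.92% and 3.09% thinned), and for 12.9% and 23.5% of NK-gated cells (0 of 85 and 0 of 51 thinned). The median γδ T cell held 7 set genes with Momordicine-I and 5 with vehicle.

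**Figure D2:**
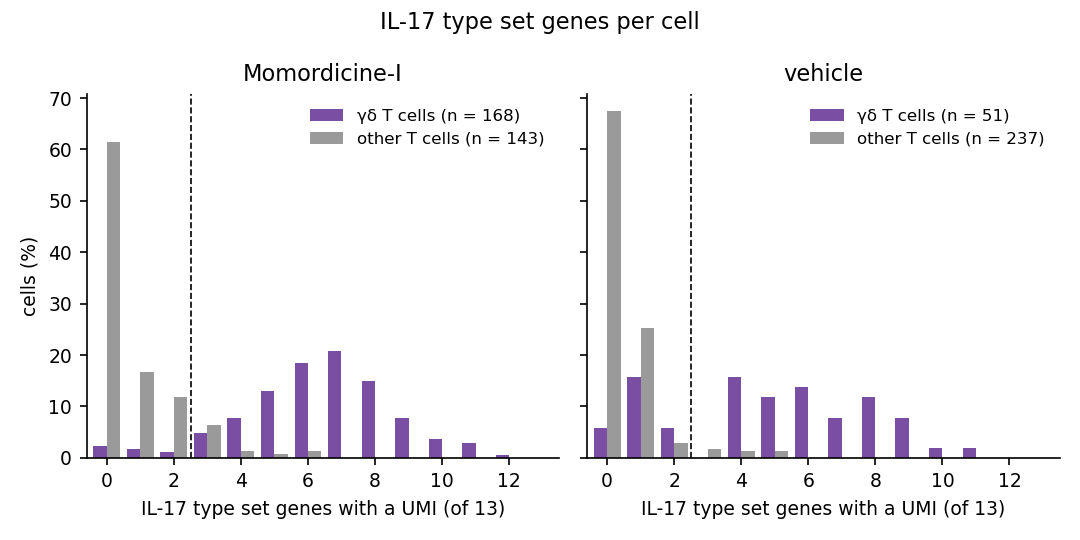
Number of IL-17 type set genes with a UMI in each cell (x axis, of 13) and the percentage of cells (y axis), Momordicine-I left and vehicle right. Purple bars are γδ T cells, grey bars other T cells, and the dashed line separates cells with 3 or more set genes. In the Momordicine-I panel 9 of 168 γδ T cells lie left of the line, and in the vehicle panel 14 of 51 do.

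Cells on either side of that line were compared for their receptor segments. Trdv4 was read in 116 of 159 Momordicine-I cells with the set and 0 of 9 without it, and in 31 of 37 vehicle cells with the set and 2 of 14 without it. Tcrg-V6 was read in 0 cells without the set in both libraries. Among the cells without the set, 3 of 9 Momordicine-I and 4 of 14 vehicle cells held Cd4 or Cd8b1, against 5 of 159 and 1 of 37 with it. Trac was read in 4 of 9 and 5 of 14 cells without the set, and in 55 of 159 and 7 of 37 with it. The median of Trdc and Tcrg-C1, which the rule used, was 2 and 4 UMIs in cells without the set and 13 and 15 UMIs in cells with the set. Counting γδ T cells with the set alone, the share ratio between libraries was 3.31.

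Against other T cells, the γδ T cells stood out by their IL-17 programme in both libraries. Of 3798 genes compared, 239 (6.29%) were at least 2-fold higher and 159 (4.19%) at least 2-fold lower in γδ T cells in both libraries. Of 23 measured genes on the IL-17 type list, those with 20 or more UMIs, 22 were higher and 0 lower, against 5.79% and 2.35% of all genes with that many UMIs. Their median log2 ratio to other T cells was 3.24 with Momordicine-I and 4.86 with vehicle. The gene that was not higher was Capg, an actin-capping protein, at 428 and 337 CPM in γδ T cells and 301 and 330 CPM in other T cells. The list was put together with earlier results of these data known, so it describes the cells and is no independent support of their name.

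Among the genes furthest above other T cells, Cd163l1, a scavenger receptor that marks IL-17 type γδ T cells in mice, was at 754 CPM in Momordicine-I and 737 CPM in vehicle γδ T cells, against 2.96 and 1.91 CPM in other T cells. Il23r, the IL-23 receptor subunit, was at 56.5 and 32.9 CPM, against 0 and 0.637 CPM. Sox13 was at 44.7 and 74.0 CPM, against 1.18 and 2.55 CPM. These genes code for a receptor, a factor and a surface marker of the lineage, and in other T cells none of the 3 passed 2.96 CPM. Foxp3-positive T cells held more of 2 of them, with Cd163l1 at 33.6 and 35.4 CPM and Il23r at 19.9 and 2.42 CPM.

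The rule for named genes also gave members outside that list. Abi3bp, an extracellular matrix protein, was at 132 CPM in Momordicine-I and 145 CPM in vehicle γδ T cells, against 1.18 and 0 CPM in other T cells. Cryba4, a crystallin known from the lens, was at 108 and 118 CPM, against 0 and 1.59 CPM. Actn2, an α-actinin known from muscle, was at 185 and 170 CPM, against 7.10 and 3.82 CPM. Aqp3, a channel for water and glycerol, was at 74.7 and 68.5 CPM, against 2.37 and 3.51 CPM. Prrt1 (52.3 and 65.8 CPM) and Ly6g5b (52.3 and 24.7 CPM) were at 3.19 CPM or less in other T cells.

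**Figure D3:**
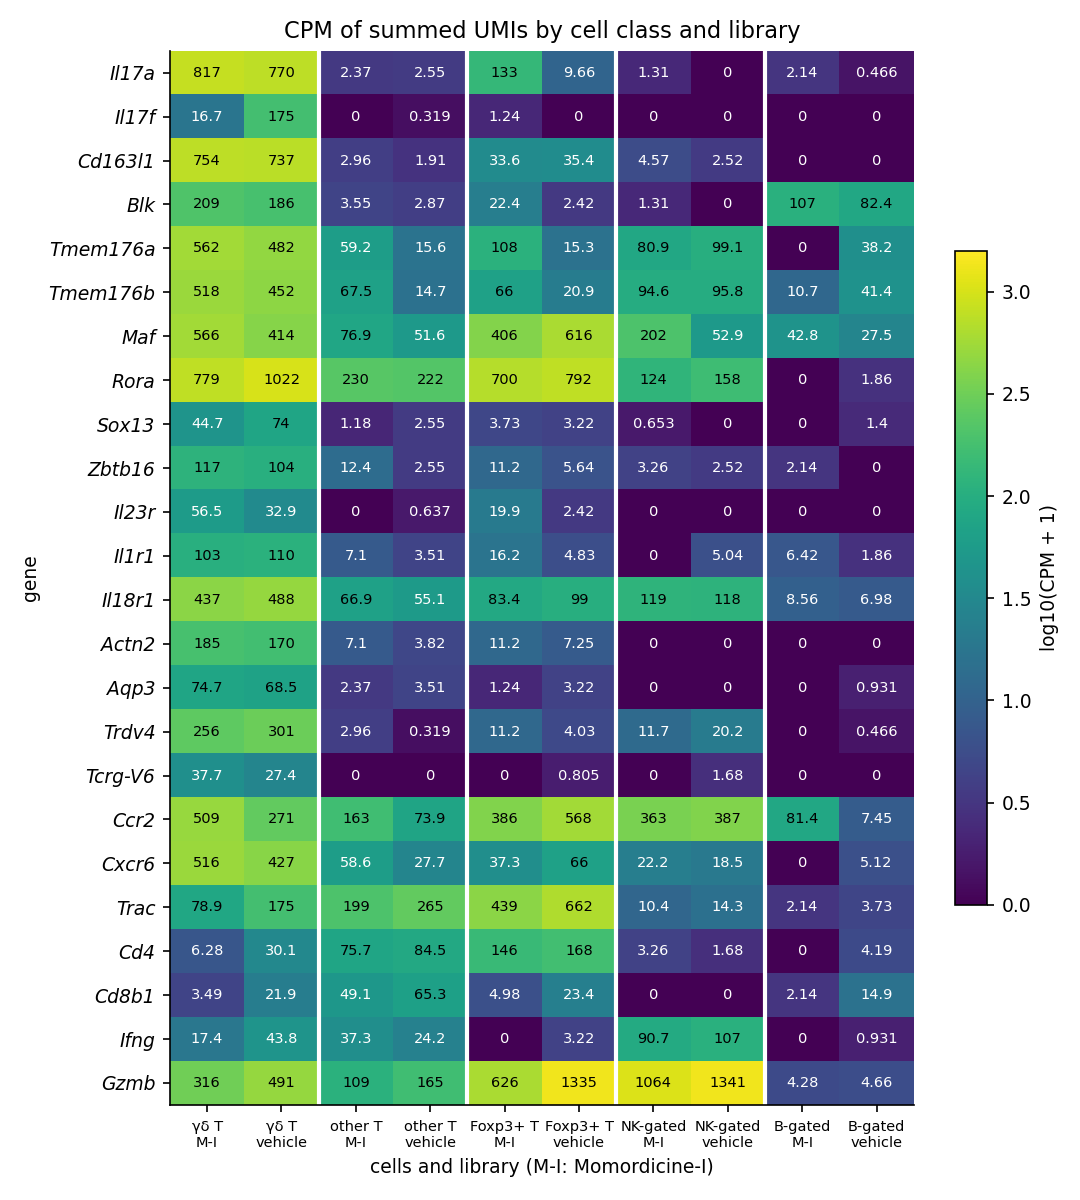
Level of 24 genes (rows) in 5 kinds of cell (columns), as CPM of summed UMIs printed in each field, with colour on a log10(CPM + 1) scale. Each kind has Momordicine-I left and vehicle right. Il17a, Cd163l1, Sox13, Actn2 and Trdv4 are highest in the 2 γδ columns, while Trac, Cd4 and Cd8b1 are higher in other T cells.

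Genes furthest below other T cells were of mixed kinds. Tnfsf8, the CD30 ligand, was at 3.49 and 5.48 CPM in γδ T cells, against 114 and 133 CPM in other T cells. Cd8a was at 1.40 and 5.48 CPM, against 53.3 and 54.5 CPM. Igfbp4 and Dapl1, genes of naive T cells, were at 33.5 and 60.3 CPM and at 0.698 and 0 CPM, against 298 and 382 CPM and 23.7 and 60.2 CPM. Mmp9, Spp1 and Hdc were lower as well, and Hdc is on the neutrophil marker list. Monocyte and macrophage markers summed to 0.113% of UMIs in Momordicine-I and 0.0249% in vehicle γδ T cells, and to 0.0733% and 0.0832% in other T cells. The part of such RNA in these lower levels was not tested.

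Within the γδ T cells, the summed level of Il17a was close in the libraries, but it changed with the cells taken. The 168 Momordicine-I cells held 1171 UMIs of Il17a and the 51 vehicle cells 281, a CPM ratio of 1.06 (0.931 to 1.21). Il17a was read in 90 Momordicine-I cells (53.6%, 45.7 to 61.3%) and 20 vehicle cells (39.2%, 25.8 to 53.9%), and after thinning in 40.5% and 26.0%. These shares lie far above background, since B-gated cells held Il17a in 1.14% and 0.444% of cells and neutrophil-rich cells in 1.15% and 0.351%, at median depths of 4903.5 and 6077 and of 4791 and 5511 UMIs.

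The Il17a RNA was held by few cells, more so with vehicle. Cells with Il17a had a median of 6 UMIs of it in the Momordicine-I and 3.5 in the vehicle library, and 18 and 3 cells held 20 or more. The richest 16 Momordicine-I and 5 vehicle cells held 58.2% and 81.9% of all Il17a UMIs. The single richest cell held 9.39% of them with Momordicine-I and 33.5% with vehicle. Without the richest cell of each library, the log2 ratio was 0.49 instead of 0.09, without cells holding Trac, Cd4 or Cd8b1 it was 0.77, and when each cell's CPM was averaged 0.61. Among cells with the IL-17 type set alone it was -0.44, and Il17a was read in 90 of 159 Momordicine-I (56.6%) and 20 of 37 vehicle (54.1%) such cells. The set includes Il17a, so those cells were chosen in part by the gene compared.

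Il17f and Il22, sister cytokines of the same cells, were sparse. Il17f had 24 UMIs in 7 Momordicine-I cells and 64 UMIs in 1 vehicle cell. That vehicle cell was also the richest in Il17a, with 94 UMIs. The Il17f ratio of 0.0955 therefore rests on 1 cell, and its sign turned round without it (log2 0.36). Il22 had 5 and 2 UMIs. Of other cytokine genes, Tnf was at 121 CPM with Momordicine-I and 115 CPM with vehicle, Ltb at 442 and 477 CPM, and Csf2, which codes for GM-CSF, at 50.2 and 65.8 CPM. Areg, an epidermal growth factor family member that promotes repair, was at 127 and 87.7 CPM in 20 and 3 cells. Of 12 measured cytokine genes, 2 (16.7%) were at least 1.5-fold higher with Momordicine-I and 4 (33.3%) lower. Over all genes with 20 or more UMIs these shares were 21.8% and 11.8%. The 2 higher ones were Vegfa (62.1 and 13.7 CPM, ratio 4.53, 1.87 to 14.3) and Csf1 (24.4 and 11.0 CPM), both of which changed sign in thinned cells. The 4 lower ones were Il17f, Ifng, Lta, a lymphotoxin (20.9 and 57.5 CPM, 0.364, 0.201 to 0.669), and Lif, a cytokine of the IL-6 family (25.8 and 52.1 CPM, 0.496, 0.278 to 0.913).

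For reading such counts, the background over all genes matters. In γδ T cells 472 of 3380 genes (14%) were at least 1.5-fold higher and 309 (9.14%) at least 1.5-fold lower with Momordicine-I. Over genes with 20 or more UMIs, the measure used for list members, these shares were 21.8% and 11.8%, and the median log2 ratio was 0.05. Of the 23 IL-17 type genes, 3 were higher and 2 lower (8.70%), below the background shares, with a median of 0.12. Among the higher genes were Il23r (ratio 1.72, 0.932 to 3.46) and Serpinb1a, a protease inhibitor that marks mouse IL-17 type γδ cells (188 and 115 CPM, ratio 1.63, 1.17 to 2.32). Sox13 (0.604, 0.379 to 0.985) and Il17f were lower. Limited to cells with the IL-17 type set, which selects cells on members of the list, the median was -0.34. In cells with fewer than 10 UMIs of other cell types' markers it was 0.42, with 4 of 23 members higher (17.4%) and 1 lower (4.35%). Over all genes these shares were 13.6% and 11.6% in such cells. Here and below, these markers are those of monocytes and macrophages, dendritic cells, carcinoma and stroma. Markers of neutrophils and of other lymphocytes were not part of that limit.

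Among the transcription factors, Maf was at 566 CPM in Momordicine-I and 414 CPM in vehicle γδ T cells (ratio 1.37, 1.15 to 1.64). Rora, a nuclear receptor, was at 779 and 1022 CPM (0.762, 0.677 to 0.859). Zbtb16, which codes for PLZF, a factor of innate-like T cells, was at 117 and 104 CPM and Hif1a, a factor of the response to low oxygen, at 561 and 559 CPM. Gata3, the factor of type 2 lymphocytes, was at 55.8 and 134 CPM (0.416, 0.288 to 0.606), with 38.8% of its vehicle UMIs in 1 cell. Of 21 measured factors, 3 were higher (14.3%) and 3 lower (14.3%) with Momordicine-I, against 21.8% and 11.8% of all genes. Their median log2 ratio was -0.08.

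The receptors upstream of the IL-17 response differed gene by gene, with Il23r higher as given above. Il1r1, the IL-1 receptor, was at 103 CPM with Momordicine-I and 110 CPM with vehicle, Il18r1 at 437 and 488 CPM and Il7r, the receptor of the survival cytokine IL-7, at 1251 and 1403 CPM. Il2rg, the chain shared by receptors of the IL-2 family, was at 209 and 367 CPM (0.570, 0.464 to 0.704). Il1r2, the decoy IL-1 receptor, was at 136 and 52.1 CPM (2.61, 1.63 to 4.43) and is on the neutrophil marker list. Neutrophil markers made up 0.118% and 0.0825% of γδ UMIs, and their part in this ratio was not tested. Of 24 measured receptor and signalling genes, 7 were higher (29.2%) and 2 lower (8.33%), against 21.8% and 11.8% of all genes.

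Of the homing genes, Ccr2, a chemokine receptor that guides cells to inflamed tissue, was higher with Momordicine-I. It was at 509 CPM in Momordicine-I and 271 CPM in vehicle γδ T cells (ratio 1.88, 1.52 to 2.34), with a UMI in 135 of 168 and 31 of 51 cells. Cxcr6, a receptor of tissue T cells, was at 516 and 427 CPM (1.21, 1.01 to 1.44), and at 58.6 and 27.7 CPM in other T cells. Cxcr3, the receptor of interferon-induced chemokines, was at 21.6 and 46.6 CPM (0.464, 0.249 to 0.894). Of 21 measured genes 1 (4.76%), Ccr2, was at least 1.5-fold higher and 2 (9.52%) were lower, Cxcr3 among them. Over all genes these shares were 21.8% and 11.8%.

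Checkpoint and costimulatory genes were lower more often than the background. Of 17 measured members 7 (41.2%) were lower and 3 (17.6%) higher with Momordicine-I, against 11.8% and 21.8% of all genes, with a median log2 ratio of -0.46. Tnfrsf9, the receptor 4-1BB that costimulates activated T cells, was at 138 CPM in Momordicine-I and 389 CPM in vehicle γδ T cells (ratio 0.355, 0.285 to 0.444). Cd28 was at 16.7 and 107 CPM (0.157, 0.0901 to 0.267) in 11 and 8 cells. Tnfrsf18, which codes for GITR, was at 76.8 and 145 CPM, and Nt5e, the ectoenzyme CD73, at 113 and 178 CPM. Pdcd1, which codes for PD-1, was at 324 and 340 CPM (0.955, 0.782 to 1.17), and Icos at 482 and 570 CPM. Markers of αβ T cells made up 0.0752% of γδ UMIs with Momordicine-I and 0.107% with vehicle, and naive T cell markers 0.0422% and 0.0863%, and their part in the ratios of this list was not tested.

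Genes of the interferon-γ type and of cytotoxic cells were lower with Momordicine-I, and most of their vehicle RNA sat in a few cells. Of 13 measured members 11 (84.6%) were lower and 0 higher, against 11.8% and 21.8% of all genes, with a median log2 ratio of -1.33. In cells with fewer than 10 UMIs of other cell types' markers 4 of 9 (44.4%, against 11.6%) were lower and 1 higher. The list median was -0.51 there. Gzma, a granzyme, had 13 UMIs with Momordicine-I and 1062 with vehicle. Of the vehicle UMIs, 1061 came from 1 cell of 36172 UMIs, the deepest in the vehicle gate, which held 22 UMIs of Trdc and Tcrg-C1 but 1 IL-17 set gene. It held 1 UMI of the monocyte, macrophage, dendritic, carcinoma and stroma markers, so it stayed among the cells with fewer than 10. Ccl5, a chemokine of cytotoxic cells, had 129 and 143 UMIs, and 140 of the vehicle UMIs came from another cell, which also held 24 of the 33 vehicle UMIs of Nkg7, a granule protein.

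Genes of this list with broader expression differed less. Gzmb, a granzyme that IL-17 type cells here held in 78 of 159 Momordicine-I and 18 of 37 vehicle cells with the set, was at 316 and 491 CPM over all γδ T cells (ratio 0.644, 0.541 to 0.771). Klrk1, the receptor NKG2D, was at 177 and 252 CPM, and Il2rb, the shared chain of the IL-2 and IL-15 receptors, at 403 and 565 CPM. Ifng had 25 UMIs in 3 Momordicine-I cells and 16 UMIs in 2 vehicle cells. Without the richest cell of each gene the list median was -0.60, and among cells with the IL-17 type set -0.52.

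Signalling genes of the T cell receptor were lower more often than the background over all γδ T cells, and less so with other choices of cells. Of 17 measured genes 6 (35.3%, against 11.8% of all genes) were lower and 1 higher with Momordicine-I, with a median of -0.32. In cells with fewer than 10 UMIs of other cell types' markers 3 of 16 (18.8%, against 11.6%) were lower and 1 higher. The median was -0.12 in those cells and -0.011 in thinned cells. Lck, the main Src kinase of αβ T cells, was at 13.3 and 71.2 CPM (0.186, 0.0974 to 0.349) in 14 and 11 cells. Zap70, a kinase of the receptor complex, was at 119 and 118 CPM. Egr1, an immediate early factor induced by receptor signals, was at 1140 and 1866 CPM (0.611, 0.558 to 0.669). The markers of αβ and naive T cells given above moved with these genes as well, and their part in the ratios was not tested.

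**Figure D4:**
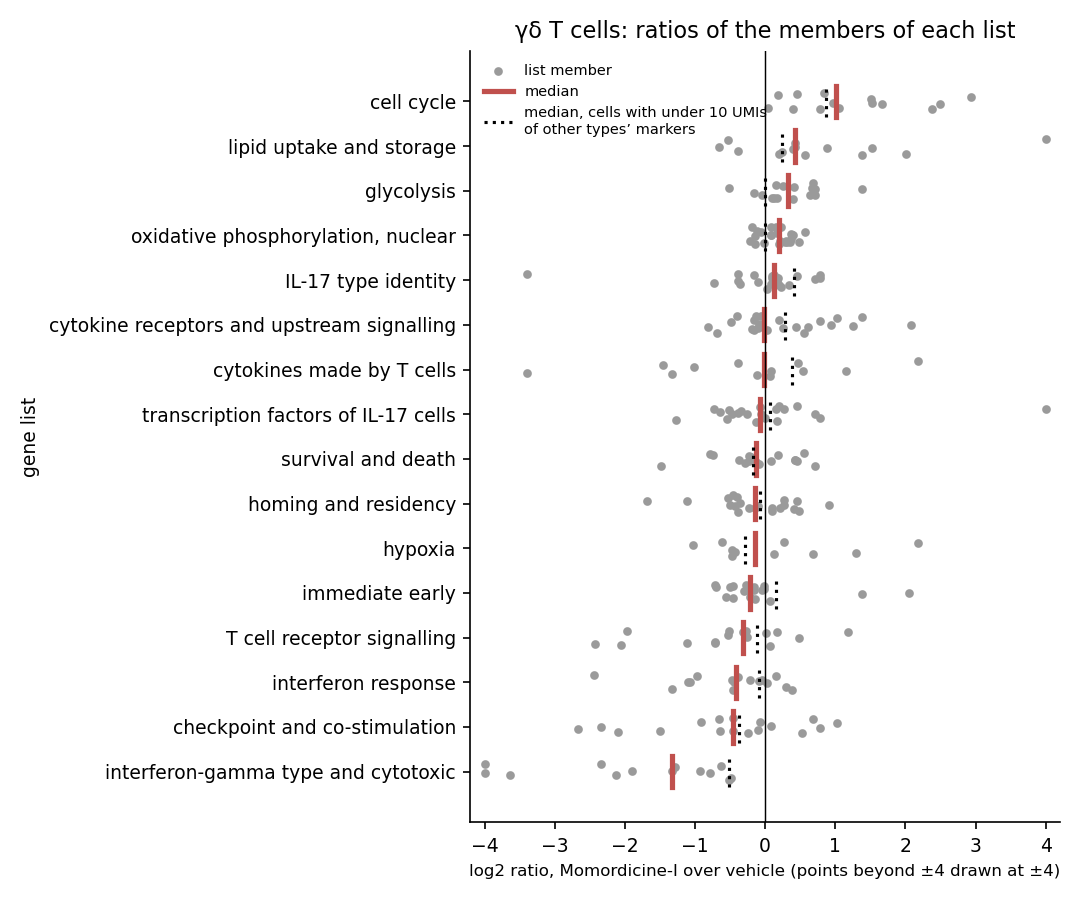
Log2 ratio of Momordicine-I over vehicle (x axis) in γδ T cells for the measured members of 16 gene lists (rows). Grey points are genes and red bars the list medians. Dotted bars are the medians in γδ T cells with fewer than 10 UMIs of monocyte, macrophage, dendritic, carcinoma and stroma markers. The cell cycle list lies highest, with a median of 1.01, and the interferon-γ and cytotoxic list lowest, at -1.33.

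Cell cycle genes were higher with Momordicine-I, from low counts. Of 14 measured members 10 (71.4%) were higher and 0 lower, against 21.8% and 11.8% of all genes, with a median log2 ratio of 1.01. Tuba1b, an α-tubulin, was at 227 CPM in Momordicine-I and 79.5 CPM in vehicle cells (ratio 2.85, 1.95 to 4.33), and Mcm6, of the replicative helicase, at 46.1 and 8.22 CPM (5.60, 1.84 to 27.9). Mki67, the Ki-67 antigen, had 41 UMIs in 12 Momordicine-I cells and 2 UMIs in 2 vehicle cells. One Momordicine-I cell held 26 of those 41 and 50 of 79 UMIs of Stmn1. It also held 42 UMIs of Trdc and Tcrg-C1, 15 of Il17a and 9 IL-17 set genes. After thinning, which leaves few counts of these genes, the list median was -0.20.

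The remaining lists held fewer differences or changed with the cells taken. Over all genes with 20 or more UMIs, 21.8% were higher and 11.8% lower. Interferon response genes were lower in 5 of 16 measured members (31.3%) and higher in 0, with a median of -0.42 that became 0.55 without cells holding Trac, Cd4 or Cd8b1 and 0.03 as a mean of the cells' own CPM. Of 25 genes of oxidative phosphorylation, 0 were higher and 0 lower. Of 19 immediate early genes 2 were higher and 2 lower, and Fos was at 2202 and 2217 CPM. Of 17 survival genes 1 was higher and 3 lower, among them Bcl2, which keeps T cells alive (243 and 419 CPM, ratio 0.579, 0.478 to 0.705). Of 10 hypoxia genes 3 (30%) were higher and 2 (20%) lower. Glycolysis genes were higher in 6 of 16 (37.5%), with Ldha at 466 and 293 CPM, and lipid genes in 5 of 14 (35.7%). Both lists are given again below for cells with few UMIs of monocyte, macrophage, dendritic, carcinoma and stroma markers.

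RNA of other cell types inside the γδ T cells was not equal between the libraries. Monocyte and macrophage markers had 1614 UMIs in 50 Momordicine-I cells and 91 UMIs in 12 vehicle cells, 0.113% and 0.0249% of UMIs, with C1qc, Ms4a7 and Fcgr1 at 0 in the vehicle cells and none of the 10 at 0 in the Momordicine-I cells. Dendritic cell markers made up 0.0202% and 0.000548%, with 7 of 9 at 0 in the vehicle cells. Carcinoma and stroma markers made up 0.0529% and 0.000822%, and 92.3% of the Momordicine-I UMIs of these came from 1 cell of 136096 UMIs, which held 3 UMIs of Trdc and Tcrg-C1 and 410 of Krt18. In all, 18 Momordicine-I and 3 vehicle γδ T cells held 10 or more UMIs of these 3 marker lists. NK cell markers had 73 and 1079 UMIs, 98.3% of the vehicle UMIs in the cell with Gzma.

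The genes furthest above equal levels with Momordicine-I were mostly genes that myeloid cells are known for. Ifi30, a lysosomal thiol reductase of antigen-presenting cells, had 272 UMIs in 47 Momordicine-I cells and 2 UMIs in 2 vehicle cells (ratio 34.6, 9.50 to 287). Tyrobp, an adaptor of myeloid and NK receptors, was at 292 and 38.4 CPM (ratio 7.60, 4.48 to 14.0). Il1b, which codes for IL-1β, was at 715 and 129 CPM (5.55, 4.15 to 7.61), with a UMI in 114 and 32 cells. Itgam, the integrin CD11b, was at 91.4 and 5.48 CPM (16.7, 4.53 to 139). Ifitm3, an antiviral membrane protein, and Basp1 had ratios of 9.96 (4.99 to 23.3) and 7.32 (3.65 to 17.2). Gda, Rap2a, Csf2rb and Alox5ap completed the 10 and had 1 to 3 UMIs in the vehicle cells, so that their ratios are loose, as that of Gda (23.7, 4.15 to 945). The marker UMIs of myeloid cells given above moved with these genes, and their part in the result was not tested over all γδ T cells.

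Restricting the comparison to γδ T cells with fewer than 10 UMIs of those marker lists, 150 Momordicine-I and 48 vehicle cells, moved these ratios. Il1b was then at a log2 ratio of 0.91 instead of 2.47, Tyrobp at 0.62 instead of 2.93 and Ifitm3 at 0.08 instead of 3.32. Ifi30 was at 2.92 instead of 5.11. Of 16 glycolysis genes 1 was higher in these cells, Slc16a3, the lactate exporter MCT4, and the list median was 0.00322. The lipid genes Apoe and Fabp5 turned to -0.05 and -0.77 on the log2 scale, from 5.16 and 2.01. Of 9 measured lipid genes 1 (11.1%) was higher and 4 (44.4%) lower, against 13.6% and 11.6% of all genes with 20 or more UMIs. The lipid list median was 0.23. Over all genes, 271 of 3248 (8.34%) were higher and 219 (6.74%) lower in these cells.

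**Figure D5:**
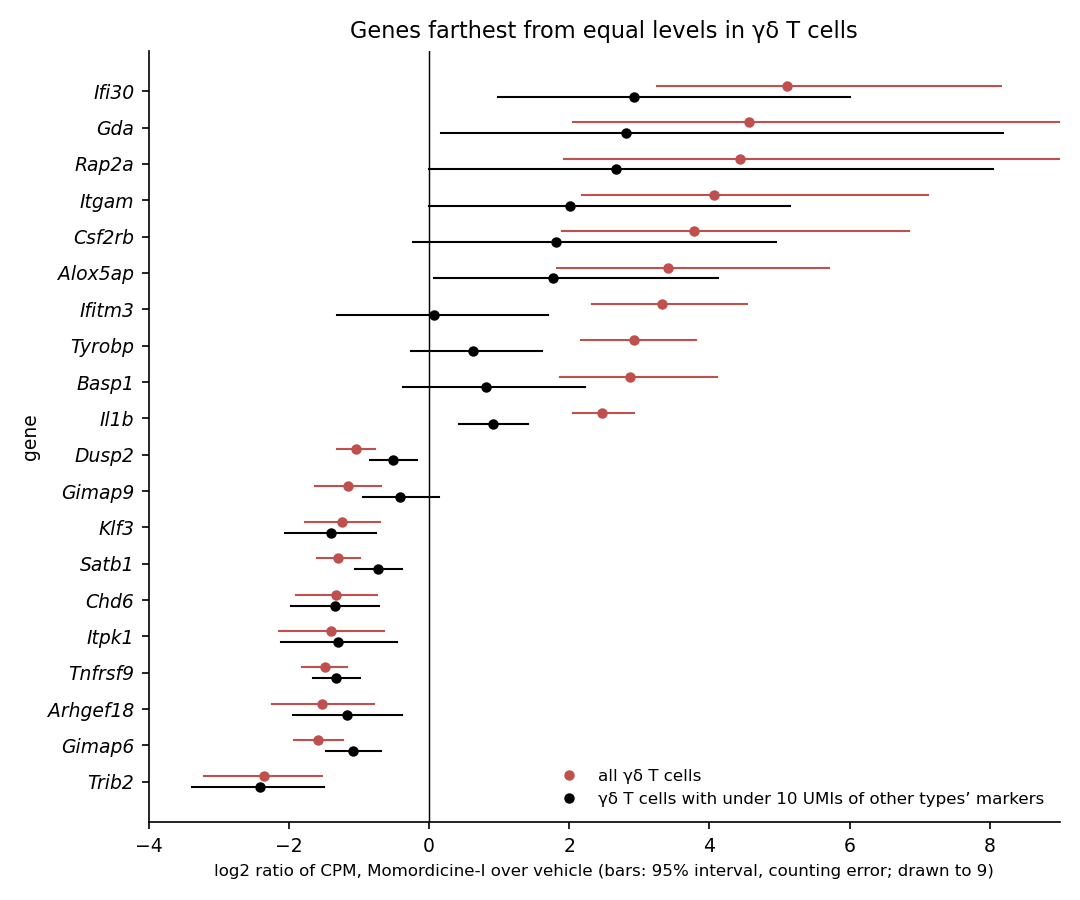
Log2 ratio of CPM, Momordicine-I over vehicle (x axis), for the 10 genes furthest above and the 10 furthest below equal levels in γδ T cells (rows). Red points are all γδ T cells, and bars are 95% intervals for counting error. Black points are γδ T cells with fewer than 10 UMIs of monocyte, macrophage, dendritic, carcinoma and stroma markers. The upper 10 shift towards 0 in the black points, while Trib2 stays at -2.36 and -2.42.

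Of the genes furthest below equal levels, several held their ratio in those cells. Trib2, a pseudokinase, was at 16.1 CPM in Momordicine-I and 82.2 CPM in vehicle γδ T cells (ratio 0.195, 0.108 to 0.348), with a UMI in 15 and 13 cells. Tnfrsf9 was at a log2 ratio of -1.33 in the restricted cells, Klf3, a zinc finger repressor, at -1.41 and Chd6, a chromatin remodeller, at -1.35. Itpk1, an inositol phosphate kinase, was at -1.30 and Arhgef18, a guanine nucleotide exchange factor, at -1.18. In all γδ T cells these 5 ratios lay between 0.348 and 0.421. All 5 kept their sign in every alternative tried, and Tnfrsf9 ranged from -1.54 to -1.16.

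The other named genes below equal levels varied more with the cells taken. Gimap6, a GTPase of lymphocyte survival, was at 112 and 334 CPM (0.334, 0.262 to 0.426), and its log2 ratio of -1.58 became -0.48 without cells holding Trac, Cd4 or Cd8b1. Gimap9, a neighbour of the same family on chromosome 6, was at 74.7 and 167 CPM. Satb1, a chromatin organiser of naive T cells, was at 161 and 397 CPM (0.406, 0.328 to 0.503) and at a log2 ratio of -0.72 in the restricted cells. Dusp2, a phosphatase induced by activation, was at 225 and 463 CPM (0.485, 0.402 to 0.588), and its log2 ratio was 0.57 in thinned cells.

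The rule for named genes, applied again to the restricted cells after their values had been seen, gave other higher genes. Ccr2 was at 647 CPM in Momordicine-I and 296 CPM in vehicle cells (ratio 2.19, 1.76 to 2.73), in 121 of 150 and 30 of 48 cells. Jaml, an adhesion molecule that costimulates epithelial γδ T cells in mice, was at 306 and 127 CPM (2.42, 1.74 to 3.42) in 103 and 23 cells. Gadd45b, a stress-induced signalling protein, was at 638 and 338 CPM (1.89, 1.54 to 2.33). Hbegf, an epidermal growth factor family member, was at 88.0 and 24.2 CPM (3.64, 1.77 to 8.72). Serpinb1a was at 253 and 124 CPM (2.05, 1.47 to 2.93), and Maf at 727 and 453 CPM (1.61, 1.34 to 1.93). In these cells 8 of 11 measured cell cycle genes (72.7%, against 13.6% of all genes) were higher and 0 lower, and 5 of 15 checkpoint genes (33.3%, against 11.6%) were lower.

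Il17a itself was not confined to γδ T cells. Foxp3-positive T cells, a kind that takes in cells with Trdc or Tcrg-C1, held it at 133 CPM in the Momordicine-I and 9.66 CPM in the vehicle library, and NK-gated cells at 1.31 and 0 CPM. Of the cells left out of the γδ gate only for Foxp3, all 4 in the Momordicine-I and 3 of 4 in the vehicle library held the IL-17 type set. Of those left out only for Ncr1 or Klrb1c, 2 of 6 and 1 of 12 did.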

How the data were processed

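CD45-positive cells of MOC2 tumours were sequenced as 10x libraries, 1 per group, each from a pool of tumours of 3 mice. The deposited values are raw UMI counts per gene and cell, made by the authors with Cell Ranger 6.0.2 on mm10, per the submitters' processing notes. All other steps were computed here with Python 3.11.15, numpy 2.4.6, scipy 1.17.1, scanpy 1.11.5 and matplotlib 3.10.9.

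Of 4693 Momordicine-I and 3642 vehicle barcodes, those with at least 200 genes and at most 10% mitochondrial UMIs were kept. The 5 neutrophil genes of the gate were S100a8, S100a9, G0s2, Csf3r and Retnlg. The other lymphocyte kinds had the same neutrophil limit: Foxp3-positive T cells had Cd3 and Foxp3 UMIs, NK-gated cells had Ncr1 or Klrb1c and no Cd3, and B-gated cells had Cd79a and no Cd3. UMIs were summed per library and kind and given as CPM. Ratios have exact conditional binomial intervals and shares Clopper-Pearson intervals, at 95%. They treat the UMIs of a cell as independent and cover counting error only.

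With 1 library per group no test was made, and a gene was called by fold alone: 1.5-fold between libraries, or 2-fold against other T cells in both. Genes needed 50 CPM and 50 UMIs, list members 20 UMIs. The code for the ratios was tried on simulated counts that drew every cell of a library from the same gene proportions. Such counts hold no variation between cells, so the trial cannot show how the intervals behave with it. Named genes were the 10 higher and 10 lower whose interval lay farthest from 1 between libraries, and the 12 higher and 8 lower against other T cells, both detected in at least 10% of cells. The first kind also needed under 20% of UMIs in 1 cell. All members of the IL-17, cytokine and receptor lists and up to 4 of each other list could be named as well. Ccr2, Cxcr6, Cxcr3, Cd28, Tnfrsf18, Gata3, Il2rg, Il1r2, Ccl5, Nkg7, Lck, Zap70, Mcm6, Mki67, Stmn1 and Slc16a3 fall outside these rules and were named after their values were seen. A few list members are not reported here by name. The members of the gate and the gene lists were chosen with earlier results of these data known.

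Scrublet, run through scanpy, called 1 Momordicine-I and 2 vehicle cells doublets by its own threshold, which has not worked at that rate. The 164 and 98 highest scores, 0.8% per 1000 barcodes, were therefore removed as an alternative, and 9 and 0 γδ T cells were among them. Genes were placed with the GENCODE annotation of GRCm38 and promoters read from RefSeq. In all, 14 alternatives were planned and 2 were added after seeing the data: cells with fewer than 10 UMIs of monocyte, macrophage, dendritic, carcinoma and stroma markers, and cells with at least 3 genes of the IL-17 type set.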

Additional observations from a re-analysis of the deposited data

Results flagged for a closer look

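The γδ T cells and the other T cells of the same libraries differed in opposite directions. The share of γδ T cells was 3.84% with Momordicine-I and 1.52% with vehicle, a ratio of 2.54, and the share of other T cells was 3.27% with Momordicine-I and 7.05% with vehicle, a ratio of 0.464. The first ratio was 5.46 times the second. With 1 library per group the difference between the ratios was not tested.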

How the results depend on the processing

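No paired analysis was possible because each group is 1 library and no replicate numbers pair samples. The γδ share ratio of 2.54 lay between 2.21 and 3.31. Against 472 genes higher with Momordicine-I in the main comparison, the count was 88 in cells thinned to 2000 UMIs, where 1001 genes were compared, 302 when each cell's CPM was averaged, 1685 with 20 UMIs and no CPM minimum, 216 at 2-fold and 271 in cells with fewer than 10 UMIs of other cell types' markers. Against 309 lower genes it was 75 thinned, 180 without the highest cell of each gene, 911 with 20 UMIs, 73 at 2-fold and 529 in cells with 3 or more IL-17 set genes. Against 239 genes higher than in other T cells it was 132 thinned, 550 with 20 UMIs and 95 at 3-fold. Fewer reads, fewer cells or another limit make up these alternatives, and beyond that the cause was not tested. The log2 ratio of Il17a, 0.09, was 0.32 with 1 UMI of Trdc and Tcrg-C1 needed, 0.77 without cells holding Trac, Cd4 or Cd8b1, 0.58 thinned, 0.61 when each cell's CPM was averaged, 0.49 without the highest cell, 0.43 with fewer than 10 UMIs of other types' markers and -0.44 with 3 or more IL-17 set genes.

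Thinning turned the sign of Csf1 (-1.71), Gda (-1.30), Vegfa (-1.30), Itgam (-0.49), Rap2a (-0.30), Gapdh (-0.013), Dusp2 (0.57), Gzma (0.61) and the cell cycle median (-0.20), and, from smaller ratios, of the lipid median (-0.60), Actn2 (-0.45), Tgfb1 (-0.45), Pkm (-0.21) and Cd44 (-0.15). In all, 30 of 117 gene ratios and list medians had the other sign in thinned cells. In cells with fewer than 10 UMIs of other types' markers it turned for Vegfa (-1.51), Fabp5 (-0.77), Apoe (-0.050), Gapdh (-0.0015) and Ifng (1.43). From smaller ratios it also turned there for Pdcd1 (0.27), Il18r1 (0.24), Il7r (0.15), Il2rb (0.14) and Icos (0.092), among others. Klrk1 (0.056), Csf2 (0.035), Bst2 (-0.089) and Aldoa (-0.056) did so too. Without the highest cell it turned for Gzma (1.34) and Il17f (0.36), when each cell's CPM was averaged for Ifng (0.072) and Lif (0.42), and with 3 or more IL-17 set genes for Gzma (1.20). With 3 or more IL-17 set genes, a choice made on some of the same genes, smaller ratios turned too. Among them were Il17a (-0.44), Cd163l1 (-0.41), Blk (-0.34), Aqp3 (-0.34), Tmem176b (-0.30), Tmem176a (-0.25) and Maf (-0.019). The median of the IL-17 type list turned to -0.34. Smaller ratios that turned in other alternatives are not all listed. Il17f (0.28) and Csf1 (-0.39) turned without cells holding Trac, Cd4 or Cd8b1, Gzma (0.63) with 1 UMI of Trdc needed, and Csf1 with neutrophil limits of 0.5% (-0.064) and 2% (-0.19) and without the highest doublet scores (-0.52). The cause was not tested. Over 101 named genes, 1185 of 1413 values moved by less than their counting interval, and over 16 lists 215 of 224 did not move past the limit set for them. The 51 vehicle cells set the depth limit, since genes under 50 CPM had few UMIs there.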
